A study of Mus musculus with 26 samples.

Results

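Among microglia sorted from the postnatal day 14 (P14) mouse cortex, a rare set of cells carried Lpl transcripts together with those of Spp1, Itgax or Gpnmb, genes that were not detected in most microglia of this age. The cells were found by a rule on unique molecular identifiers (UMIs, each standing for 1 captured transcript). A cell barcode qualified with at least 500 genes detected, at most 20% of its UMIs from mitochondrial genes, and at least 2 UMIs of Csf1r and C1qa together. It also needed at least 5 summed UMIs of Itgax, Lpl, Spp1 and Gpnmb with at least 2 of these genes detected, at most 1 UMI of the border-macrophage genes F13a1 and Ms4a7, and under 8 UMIs of the chemokine genes Ccl3 and Ccl4. The rule also names Clec7a, which was not among the genes counted in these libraries, so it could not be used. The cells that met it are called the selected cells. Lpl was present in 87 of them and Spp1 in 63, so they are not all positive for Spp1. They numbered 88 of 29899 P14 barcodes past the filters on genes and mitochondrial UMIs, of which 29554 had the 2 UMIs of Csf1r and C1qa and are called microglia.

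The study asked how maternal immune activation (MIA) alters microglia of the developing somatosensory cortex. Pregnant dams of the C57Bl/6N wild-type strain received the viral mimic poly(I:C) (MIA) or saline at E12.5 (E standing for embryonic day), so the offspring shared genotype and differed in the maternal injection. Cells positive for Cd11b and Cx3cr1 and low for Cd45 were sorted from somatosensory cortex stripped of meninges, and profiled by 3' droplet single-cell RNA sequencing. Of 18 sorted libraries, 6 were from P14: saline replicates 1, 2, 3F and 3M (n = 4), and MIA replicates 1 and 2 (n = 2). Replicates 1 and 2 of both groups are labelled as mixed sex and are given in the study's sample details as a male and a female littermate pooled, although the study elsewhere counts fewer animals. Both 3F and 3M are labelled replicate 3, from 1 female and 1 male pup. Each P14 library held 3809 to 5822 barcodes past the filters, with 22187944 to 32527293 UMIs in them. The p-values below measure the spread between these libraries, and with 4 against 2 libraries a two-sided exact permutation test cannot go below 0.133.

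Lpl encodes lipoprotein lipase, which releases fatty acids from circulating triglyceride-rich lipoproteins. Spp1 encodes osteopontin, a secreted phosphoprotein that binds integrins and CD44. Itgax encodes the integrin subunit CD11c, and Gpnmb a transmembrane glycoprotein of lysosomes and melanosomes. As background, microglia that express these genes together with Apoe, Igf1, Cst7 and Cd9 are known from developing white matter, where they gather around young axon tracts and engulf oligodendrocyte-lineage cells, and from neurodegeneration, where the related disease-associated state needs the lipid receptor Trem2. Both states express less of the homeostatic genes P2ry12 and Tmem119.

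The promoters of the rule genes are shown because the rule selects on their joint transcription. RefSeq windows of the GRCm38.p6 build, 250 bases before to 50 bases after a start site, were searched on both strands for the PU.1 core GAGGAAGT, the AP-1 element TGANTCA and the E-box CACGTG, none of which overlap. Spp1, Gpnmb, Itgax, Apoe and Clec7a had windows, and Lpl is named only. In the Spp1 window the PU.1 core began 113 bases before the start site, and in the Itgax window an AP-1 element began 56 bases before it. The bases upstream of both starts are printed 5′ to 3′ on the plus strand, with the matched motif in capitals.
Spp1 upstream, chr5:104434861-104435110, plus strand: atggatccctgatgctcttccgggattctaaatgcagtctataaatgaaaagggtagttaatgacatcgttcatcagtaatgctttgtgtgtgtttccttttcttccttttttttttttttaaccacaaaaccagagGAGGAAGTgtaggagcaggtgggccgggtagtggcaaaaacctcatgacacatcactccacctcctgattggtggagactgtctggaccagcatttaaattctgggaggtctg
Itgax upstream, chr7:128129300-128129549, plus strand: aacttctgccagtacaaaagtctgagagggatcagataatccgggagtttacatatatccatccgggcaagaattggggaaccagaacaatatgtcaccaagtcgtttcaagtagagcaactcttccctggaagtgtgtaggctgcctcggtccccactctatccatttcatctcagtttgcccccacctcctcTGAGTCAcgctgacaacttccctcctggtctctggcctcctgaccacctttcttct
Gpnmb held an AP-1 element 8 bases past its start. A second Spp1 window, both Clec7a windows and all 3 Apoe windows held none of the 3 motifs. Over all 32851 mouse promoter windows, 3.20% held the PU.1 core, 7.81% the AP-1 element and 7.15% the E-box, so these matches are descriptions of the letters only. In the GENCODE annotation of the same build the genes lie on the plus strand at chr5:104435118-104441050 (Spp1), chr6:49036546-49070929 (Gpnmb), chr7:128129547-128150657 (Itgax) and chr8:68880491-68907448 (Lpl), and on the minus strand at chr7:19696109-19699188 (Apoe), all protein coding.

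Some of the selected barcodes were listed in more than one library, which touches every result that follows. Of the 88 cells, 30 carried a barcode that also passed the filters in another sorted library. In saline 3F 13 of 19 did so and in saline 3M 11 of 17, all 24 of them shared with the embryonic E13 MIA 2 library. Barcodes were also common to further libraries, as saline 3F shared 239 filtered barcodes with 3M (12 selected in 3F), 233 with E15 MIA 3 (11 selected) and 159 with E15 saline 3 (11 selected). Of the remaining libraries, saline 1 held 2, saline 2 held 1, MIA 1 held 3 and MIA 2 held 0 shared barcodes. Those of saline 1 and MIA 1 had more UMIs in E13 MIA 1, by ratios of 24.3 to 38.9. Among other microglia 1128 of 29226 barcodes were shared. The 24 barcodes of 3F and 3M had more UMIs in E13 MIA 2 than at P14, by a ratio of 2.83 to 4.18 with a median of 3.40, and 9 of their 15 distinct barcodes were selected in both 3F and 3M. Over the 258 filtered barcodes common to E13 MIA 2 and saline 3F, the expression profiles of a barcode correlated with a median r of 0.858 across genes, against 0.612 with the next barcode in the list. These correlations are across genes, which are not independent replicates.

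The shared and unshared cells also differed in composition. Cd9, a tetraspanin gene, had a median of 4.28 UMIs per 10000 in the 30 shared cells and 26.7 in the 58 unshared ones. The 10th percentile of the unshared cells was 11.1, above the median of the shared ones. The share of mitochondrial UMIs had a median of 5.27% in shared and 1.71% in unshared cells. At least 5 UMIs of the proliferation genes Mki67 and Top2a together were present in 14 of 30 shared and 3 of 58 unshared cells. Gpnmb had 15 of its 18 UMIs in shared cells, 8 in 1 cell of saline 3F and 7 in 1 cell of saline 3M. Both cells have a barcode with 47470 UMIs in E13 MIA 2. Since 9 barcodes were selected in both 3F and 3M, the shared cells hold fewer distinct barcodes than cells. In cells of the E13 libraries that passed the same rule and had no shared barcode, Cd9 had a median over libraries of 538 CPM (UMIs scaled to a library sum of 1000000), where the shared P14 cells pooled had 426 CPM and the unshared P14 cells pooled had 2676 CPM. Xist or Tsix, transcribed from the female X chromosome region, was detected in 0 of 6 unshared and 5 of 11 shared cells of saline 3M. The main counts, shares and tests are therefore given for all 88 cells and for the 58 unshared cells, which were set apart after seeing the data, and levels compared with other microglia are those of the unshared cells unless stated.

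**Figure D1:**
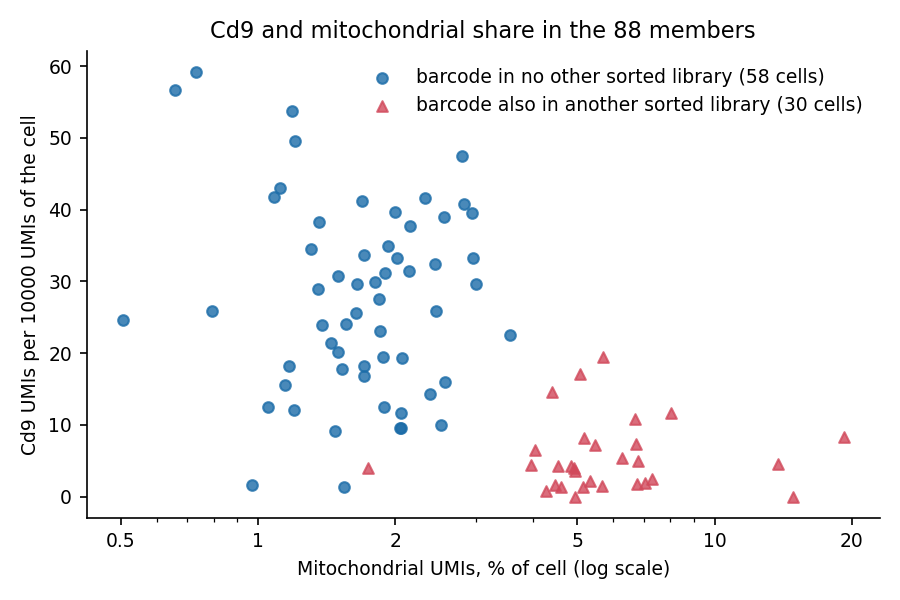
Each point is 1 of the 88 selected P14 cells, plotted by the percent of its UMIs from mitochondrial genes (log axis) and its Cd9 UMIs per 10000 UMIs, with shared and unshared barcodes in different symbols. Shared cells sit at high mitochondrial percent and low Cd9 (medians 5.27% and 4.28), unshared cells at low percent and high Cd9 (medians 1.71% and 26.7).

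The selected cells held far more Lpl and Spp1 than Itgax or Gpnmb transcripts. Lpl was detected in 87 of the 88 cells with 614 UMIs. Spp1 was detected in 63 cells with 315 UMIs, with a median of 1 UMI a cell and 2 or more UMIs in 38 cells. Itgax was detected in 29 cells with 41 UMIs and Gpnmb in 5 cells. Lpl and Spp1 occurred together in 62 cells, and 8 cells had 3 of the rule genes. Among the 58 unshared cells, Lpl was found in 57 with 440 UMIs, Spp1 in 43 with 193, Itgax in 19 with 29 and Gpnmb in 3 with 3. Lpl gave 66.2% and Spp1 29.0% of the UMIs that met the rule in unshared cells. Apoe, which the rule did not use and which encodes a main apolipoprotein of the brain, was present in all 88 cells, with a median of 61.5 UMIs a cell. These values chose the cells or come from the same cells, and they carry no test.

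Many cells lay near the threshold. The summed UMIs were exactly 5 in 25 of the 88 cells, 6 to 9 in 34 and 10 or more in 29 (15, 26 and 17 of the 58 unshared cells). Just outside it, 21 microglia had a sum of 4 with at least 2 of the genes, and 206 had 5 or more UMIs of a single gene, which was Lpl in 204 and Spp1 in 2 (16 and 131 without shared barcodes). Selected cells also held more UMIs than their neighbours, with a median of 9363 UMIs (8618 in unshared cells). Library medians were 5298 to 11089 UMIs in selected cells and 3693 to 6829 in other microglia. Within the highest-scoring barcodes of a doublet caller, 3.05 to 4.65% of each library, no selected cell was found.

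To compare detection at equal depth, each barcode was thinned to 2000 UMIs. Lpl and Spp1 chose the cells at full depth, so their values are descriptions. Lpl was then found in 74.1% of the 58 unshared selected cells, 6.15% of 26748 other microglia and 2.72% of 147 P14 barcodes with under 2 UMIs of Csf1r and C1qa. Spp1 was found in 25.9%, 0.146% and 0% of the same classes, where 0 of 147 allows a share of up to 2.04%. Apoe was found in 93.1%, 57.8% and 46.3%, and so was common also in barcodes without the microglial markers. Lyz2, encoding lysozyme, was found in 50.0%, 6.76% and 0%. The tetraspanin genes Cd9 and Cd63 were found in 94.8% and 89.7% of unshared selected cells, against 58.5% and 39.4% of other microglia. Igf1 was found in only 12.1% of unshared selected cells, against 1.65% of other microglia.

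Apoe, Cd63, Igf1 and Lyz2 were higher and P2ry12 and Slc2a5 lower in the selected cells than in other microglia of every library. The median share of mitochondrial UMIs was also higher in unshared selected cells, at 1.499 to 1.956% over libraries against 1.091 to 1.414%, and its part in these differences was not tested. UMIs were summed over selected cells and over other microglia in each library and scaled to CPM, and a gene was called where the sums differed at least 2-fold in the same direction in 6 of 6 libraries. Other microglia are those outside the rule that also met its limits on border-macrophage and chemokine genes. Since the rule chose the cells on the same libraries, the contrast is a description and no test was run. Of 6699 genes with a mean of at least 20 CPM in either class, 52 were higher in selected cells (0.776%) and 36 lower (0.537%). Without shared barcodes, 41 of 6654 were higher (0.616%) and 20 lower (0.301%), and 29 of the higher and 16 of the lower genes were called both ways. Selected cells held more UMIs per cell. When other microglia were weighted to the same UMIs per cell, 16 genes were higher, 14 of them among the 52. In that setting 24 were lower, 18 of them among the 36. Its calls held 13 of the 41 higher and 12 of the 20 lower genes called without shared barcodes. The weighting was run with shared barcodes kept, and the levels below are not weighted for depth. Leaving out saline 1 gave 119 higher genes. The lower genes numbered 41 to 73 with 1 library left out and 105 with a minimum mean of 5 CPM. The log2 ratio, with 1 CPM added to both sums, had a median over all genes tested of -0.14 without shared barcodes.

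Apoe stood at 18184, 5989, 5686 and 12033 CPM in unshared selected cells of saline 1, 2, 3F and 3M, and at 11977 and 8790 CPM in MIA 1 and 2. In other microglia it stood at 1298 to 1610 CPM, so the summed levels of the classes did not overlap. The median log2 ratio was 2.71. Single cells varied, as 1 cell of saline 1 held 386 of the 533 Apoe UMIs there and another held 1. The unshared selected cells had 1842, 2308, 1981, 2005, 1281 and 2641 CPM of Cd63, in the same order of libraries. Other microglia had 288 to 362 CPM. Cd63 encodes a tetraspanin of late endosomes and lysosomes. Igf1, a growth factor for oligodendrocytes and neurons, had 171, 146, 140, 103, 80.7 and 175 CPM against 6.18 to 11.3 CPM. Igf1 was detected in 26 of the 58 unshared selected cells, with 76 UMIs in all, so these sums come from a minority of them. Lyz2 had 785, 380, 443, 1091, 656 and 614 CPM against 37.3 to 58.0 CPM. All 4 genes lay above other microglia in every library, with the widest spread in Apoe, at 10443 ± 4690 CPM (SD, n = 6). The galectin gene Lgals1 had the highest median log2 ratio of the called genes outside the rule, 5.46, with 44.2 to 282 CPM in unshared selected cells and 2.01 to 4.06 CPM in other microglia. Other high ratios were those of Gas2l3 (4.03), a cytoskeletal linker, Baiap2l2 (3.84), Fabp3 (3.55), a fatty acid carrier, Apoc1 (3.53), an apolipoprotein next to Apoe, Fxyd5 (3.26), Psat1 (2.66), an enzyme of serine synthesis, and Crip1 (2.63). Higher calls can rest on few UMIs too. Fabp3 had 21 UMIs over the 58 unshared cells, at 19.5 to 73.7 CPM, and 1 UMI was worth 34.1 CPM in saline 1. Fabp5, another fatty acid carrier, had a median log2 ratio of 4.49 but was 2-fold higher in 5 of 6 unshared sets, and Lgals3 (5.47) and Itgax (4.64) likewise in 5 of 6. By the rule's own genes, Lpl had 644 to 1194 CPM against 22.7 to 50.9, and Spp1 195 to 1126 CPM against 0.804 to 1.17.

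P2ry12, the ADP receptor that guides microglial processes, was lower in the selected cells. It had 2183, 1938, 2890 and 2138 CPM in unshared cells of saline 1, 2, 3F and 3M and 2270 and 1832 CPM in MIA 1 and 2. Other microglia held 5883 to 6460 CPM, above each of these values, and the median log2 ratio was -1.49. Tmem119, a membrane protein of mature microglia, had a mean of 600 ± 264 CPM (SD, n = 6) against 1480 ± 53.6, and was 2-fold lower in 5 of 6 unshared sets. Slc2a5, the fructose transporter, stood at 44.9 to 136 CPM against 351 to 395 CPM. Further lower genes were Gpr165 (median log2 ratio -2.36), Grap (-2.21), Khdrbs3 (-2.09), Mtss1 (-1.87) and Rapgef5 (-1.80). The lowest ratios, of Crim1 (-4.71), Rnase6 (-4.30) and Snhg11 (-4.05), rested on 2 UMIs each in the unshared selected cells. Hba-a1, a haemoglobin gene (-2.71), also rested on 2 UMIs and had 67.5 ± 122 CPM in other microglia.

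**Figure D2:**
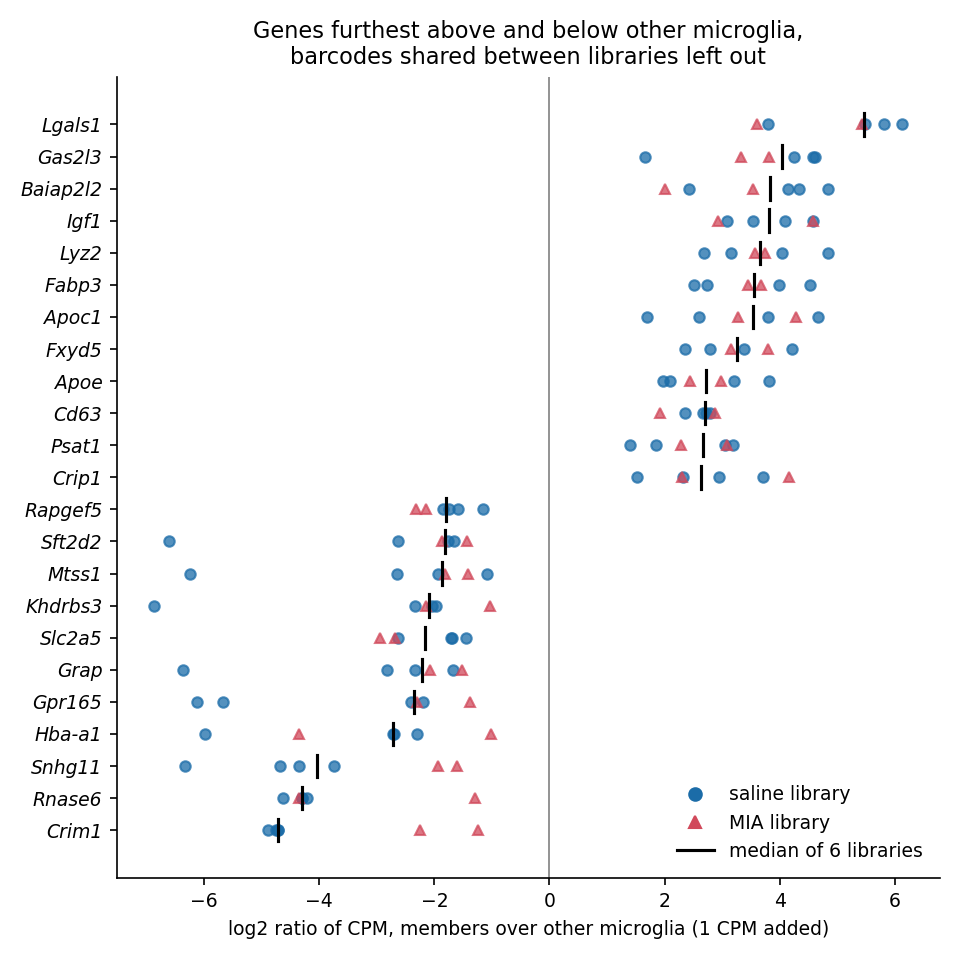
Log2 ratio of CPM in the unshared selected cells (members) to other microglia, with 1 CPM added to both, for the highest and lowest called genes outside the rule, 1 point per P14 library (circles saline, triangles MIA) and a bar at the median of 6. Lgals1 leads at a median of 5.46, the points of Apoe and Cd63 lie above 1 in 6 of 6 libraries, and those of Slc2a5 lie below -1.

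Gene lists give the same picture by group, and all were chosen with earlier results of these data known. Of 28 disease-associated and proliferative-region genes past the level of 20 CPM, 11 were higher and 0 lower in unshared selected cells (median log2 ratio 1.97), among them Apoe, Cst7, Cd9, Cd63, Ctsb, Igf1 and Lyz2. Over all genes 0.616% were higher and 0.301% lower, the background for this and the following list counts, and the lists hold genes chosen with such results known. Their summed level was 49361 to 63969 CPM in selected cells and 20748 to 23467 CPM in other microglia. Trem2 (0.63) and its adaptor Tyrobp (0.47) stayed below 2-fold. Of 20 homeostatic genes, 0 were higher and 2 lower, P2ry12 and Slc2a5, and 17 were below other microglia in 6 of 6 libraries (median -0.60). With all 88 cells, Tmem119 and Selplg were also lower and all 20 were below in every library. Of 10 microglial identity genes none was called (median -0.10), with Cx3cr1 at -0.58 and Csf1r, the receptor the rule used, at -0.59.

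Lysosome and phagocytosis genes had 3 higher and 0 lower of 23 (median 0.82), namely Cd63 and the cathepsin genes Ctsb and Ctsz. Lipid-handling genes had 4 higher and 0 lower of 15 (median 1.19), namely Apoe, Apoc1, Fabp3 and the cholesterol exporter Abcg1. Glycolysis had 2 higher of 14 (median 1.06), Pgk1 and the lactate transporter Slc16a3. Growth factors had 1 of 8, Igf1, and chemokines and cytokines 1 of 6, Ccl3, for which the rule set an upper limit. None was called among the 6 interferon-response, 6 MHC class II and antigen-presentation, 7 dissociation or 15 signalling genes of the TREM2, CSF1R and LXR pathways that passed. Of 14 cell-cycle genes past that level none was called in unshared cells (median 0.51). With all 88 cells 3 of 18 were higher, Cenpf, Stmn1 and Tpx2 (median 2.38), with a summed level of 436 to 4294 CPM against 278 to 554 CPM.

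Markers of other cell types were compared in the same way. The 12 border-macrophage markers summed to 177 to 303 CPM in unshared selected cells and 253 to 306 CPM in other microglia, with F13a1, Ms4a7, Pf4, Lyve1, Cd163, Cd209f and Clec12a at 0 (the rule itself bounds F13a1 and Ms4a7). Monocyte and dendritic-cell markers summed to 0 to 70.6 CPM against 36.1 to 49.6, with Ly6c2, Flt3 and Ccr7 at 0. The 7 neutrophil markers summed to 0 to 233 CPM against 117 to 135 CPM, with all but Csf3r at 0, S100a8 and S100a9 included. The 11 oligodendrocyte-lineage markers summed to 0 to 101 CPM against 99.4 to 167 CPM, with Mog, Olig1, Olig2, Pdgfra and Cldn11 at 0 and Mbp detected in 9 of the 58 cells. The neuronal list summed to at most 69.9 CPM. Astrocyte markers summed to 68.2 to 206 CPM against 137 to 245 CPM, and endothelial and mural markers to 0 to 46.6 CPM against 29.9 to 39.7 CPM.

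Since the rule asks for 2 genes, a cell with Lpl but no Spp1 had to hold Itgax or Gpnmb. The 42 unshared cells with both genes had 7191 ± 2415 CPM of Apoe (SD, n = 6 libraries), 93.2 ± 60.6 of Cst7, a cystatin, and 441 ± 239 of Lyz2. The 15 cells without Spp1, of which 14 held Itgax and 1 Gpnmb, came from 5 libraries and had 24406 ± 26142 CPM of Apoe, 11.3 ± 17.2 of Cst7 and 1433 ± 990 of Lyz2. The highest values of both Apoe (70567 CPM) and Lyz2 (3108 CPM) in the latter come from saline 1, which held 1 such cell, so these means carry little weight. Cst7 in them rests on 2 UMIs, and its ranges over libraries, 23.3 to 167 CPM with Spp1 and 0 to 38.9 CPM without, overlapped.

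The same genes graded through microglia that the rule did not select. Unshared microglia were divided by their summed rule UMIs into 24382 cells with 0, 2514 with 1, 1071 with 2 to 4 and 131 with 5 or more of Lpl alone, beside the 58 selected cells. Apoe averaged 1235 ± 143, 1917 ± 152, 3440 ± 468, 6922 ± 1806 and 10443 ± 4690 CPM in that order (SD, n = 6 libraries). Cd63 averaged 300 ± 27.8, 421 ± 80.7, 702 ± 134, 1241 ± 329 and 2010 ± 457 CPM. P2ry12 ran the other way, at 6241 ± 229, 5972 ± 288, 5188 ± 354, 3309 ± 506 and 2209 ± 371 CPM. Tmem119 likewise averaged 1507, 1410, 1203, 792 and 600 CPM. The means of the cells with Lpl alone lay between those of the selected cells and the rest for Apoe, Cd63 and P2ry12. Sums of rule UMIs also follow the depth of a cell, whose part in these levels was not tested.

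**Figure D3:**
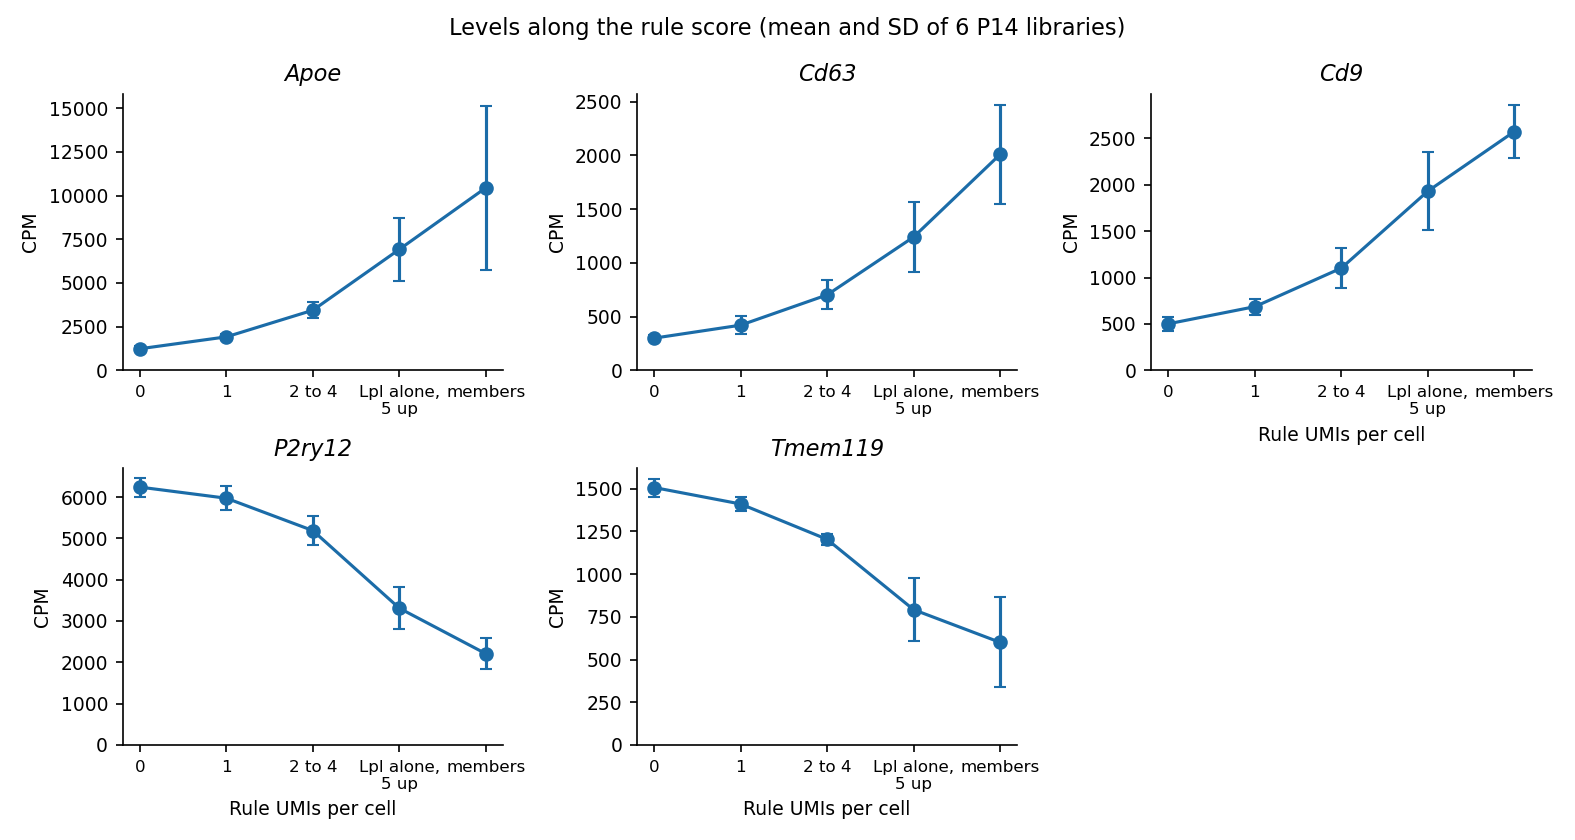
Mean CPM (error bars, SD over 6 P14 libraries) of Apoe, Cd63, Cd9, P2ry12 and Tmem119 in unshared microglia grouped by rule UMIs per cell: 0, 1, 2 to 4, 5 or more of Lpl alone, and the selected cells (members). The means of Apoe, Cd63 and Cd9 climb and those of P2ry12 and Tmem119 descend along the groups.

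The share of selected cells among P14 microglia did not differ detectably between MIA and saline. In saline 1, 2, 3F and 3M they made up 0.121%, 0.294%, 0.408% and 0.351% of microglia (7, 11, 19 and 17 cells). In MIA 1 and 2 they made up 0.267% and 0.384% (15 and 19 cells), both inside the saline range. The means were 0.326 ± 0.0827% (SD, n = 2) in MIA and 0.294 ± 0.124% (SD, n = 4) in saline, a difference of 0.0321 percentage points (two-sided exact permutation test, p = 0.933). With 3F and 3M, both labelled replicate 3, averaged as 1 sample, the difference was 0.0607 percentage points (two-sided exact permutation test, p = 0.8). Without shared barcodes the cells numbered 5, 10, 6 and 6 in saline and 12 and 19 in MIA, or 0.0899%, 0.272%, 0.138% and 0.132% against 0.224% and 0.393%. MIA 2 then lay above all saline libraries and MIA 1 above all but saline 2, and the difference was 0.150 percentage points (two-sided exact permutation test, p = 0.267). At 5 to 19 cells a library, counting error alone is wide. The exact (Clopper-Pearson) 95% interval of the unshared share ran from 0.0292 to 0.210% in saline 1 and from 0.237 to 0.613% in MIA 2, and such intervals cover counting error only. After thinning every barcode to 2000 UMIs, the same rule left 2, 2, 3 and 4 cells in saline and 2 and 2 in MIA, and the difference was -0.0220 percentage points. With a thinned rule sum of at least 2, both MIA libraries (0.114% and 0.106%) lay below all 4 saline libraries (0.141 to 0.215%), a difference of -0.0569 percentage points (two-sided exact permutation test, p = 0.133, the smallest it can give). With shared barcodes also left out, this difference was -0.00157 percentage points.

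**Figure D4:**
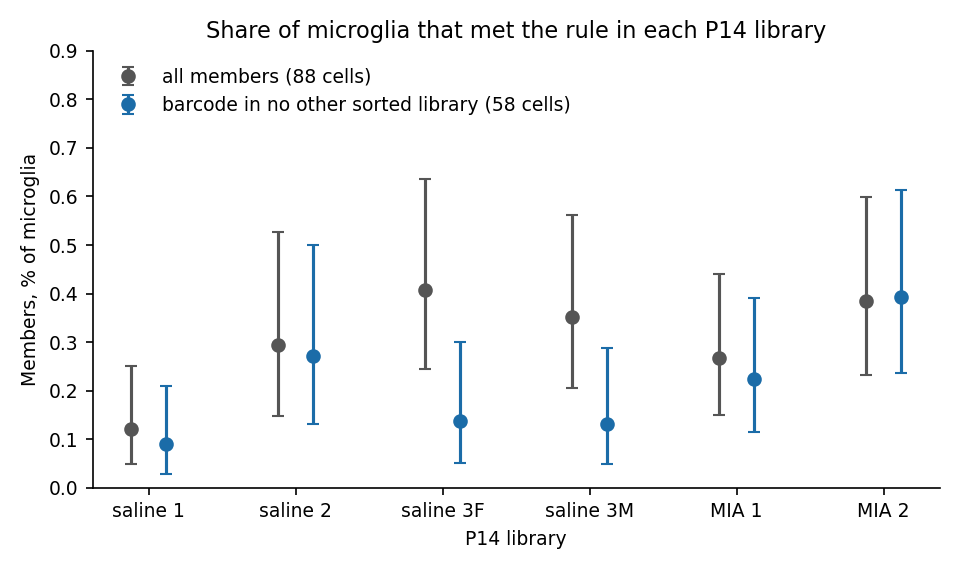
Percent of P14 microglia that met the rule (members), 1 point per library with its exact 95% binomial interval, for all 88 cells and for the 58 with unshared barcodes. With all cells both MIA libraries (0.267 and 0.384%) lie inside the saline range of 0.121 to 0.408%, and without shared barcodes saline 3F and 3M stand at 0.138 and 0.132%.

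Within the selected cells, no gene passed the test for a response to MIA. With UMIs summed per library and edgeR's quasi-likelihood test with Benjamini-Hochberg adjustment, 0 of 3027 genes were called (0%), and 210 had an unadjusted p under 0.05. DESeq2 also called 0, with 86 at an unadjusted p under 0.05. Without shared barcodes, edgeR called 0 of 1691 genes (0%), with 32 at an unadjusted p under 0.05, and DESeq2 0 with 3. Among other microglia edgeR called 0 of 13285 genes. Leaving out saline 2 brought 76 calls with all 88 cells, and leaving out saline 1 brought 3. Leaving out either MIA library leaves 1 in that group, so no count is given.

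Lpl, Spp1 and Itgax chose the cells, so their levels within them are bounded by the rule and are given as descriptions with no test. Lpl had 686, 773, 591 and 835 CPM in all selected cells of saline 1, 2, 3F and 3M, and 968 and 644 CPM in MIA 1 and 2, 1 of them above all saline values and the other within their range. Its log2 fold change, MIA against saline, was 0.13 (SE 0.33). The SE here and below is an approximation, the absolute log2 fold change over the square root of edgeR's F statistic. Spp1 had 1278, 204, 321 and 415 CPM in saline and 667 and 195 CPM in MIA, with a log2 fold change of -0.21 (SE 0.52). The high saline 1 value came from 7 cells. Apoe, which the rule did not use, had 17636, 5499, 6597 and 8150 CPM in saline and 11913 and 8790 CPM in MIA, with a log2 fold change of 0.13 (SE 0.47, edgeR adjusted p = 0.961). Itgax had a log2 fold change of 0.45 (SE 0.63), and Gpnmb was below the filter on low counts. Without shared barcodes the log2 fold changes were -0.26 (SE 0.26) for Lpl, -0.51 (SE 0.44) for Spp1 and -0.01 (SE 0.32) for Apoe. In each case the MIA values overlapped the saline ones.

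A direct test of whether the MIA response differed between selected cells and other microglia of the same libraries called 3 of 12247 genes with all 88 cells (0.0245%). Cdkn1a, encoding the cell-cycle inhibitor p21, had a difference of 3.15 in log2 fold change (SE 0.64, edgeR adjusted p = 0.00562). Its UMIs in selected cells were 1, 4, 1 and 2 in saline 1, 2, 3F and 3M and 28 and 3 in MIA 1 and 2. A single cell of MIA 1 held 20 of the 28 UMIs. Xist, which silences an X chromosome in female cells, had -1.98 (SE 0.40, adjusted p = 0.00562), and the replication-dependent histone gene Hist1h2ap -1.88 (SE 0.40, adjusted p = 0.00957), by the same edgeR test. Hist1h2ap had 54 and 40 UMIs in selected cells of saline 3F and 3M, and 0 in both once shared barcodes were left out. Xist went from 124 UMIs to 0 in selected cells of saline 3M and from 1005 to 2 in its other microglia. Without shared barcodes 0 of 12031 genes were called (0%), with 316 at an unadjusted p under 0.05. With all cells, leaving out saline 1, 2, 3F or 3M gave 5, 45, 1 or 0 calls. Saline 3F and 3M were fitted as separate libraries although 9 barcodes were selected in both, and no fit of this difference merged them.

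Cells that met the same rule were far more frequent in the embryonic libraries. Without shared barcodes, they made up 7.91 to 9.56% of microglia in the 3 E13 saline libraries and 1.30%, 8.53% and 14.6% in the E13 MIA libraries. At E15 they made up 0.917 to 2.93% in saline and 1.39 to 4.05% in MIA, and at P14 0.0899 to 0.272% and 0.224 to 0.393%. The lowest E13 MIA value, of E13 MIA 2, rests on 1 cell of 77 microglia. In that library 36 of 37 passing cells had a shared barcode, and in E13 MIA 1 25 of 36 did. With shared barcodes kept, the shares were 13.4%, 10.45% and 14.6% in E13 MIA 1, 2 and 3. Those of E13 saline were then 7.94 to 9.78%. Unshared passing cells had library medians of 13167 to 33802 UMIs at E13 and E15, leaving out the 1 cell of E13 MIA 2. At P14 the medians were 5427 to 10959 UMIs, and the rule favours deep cells. Thinned to 2000 UMIs without shared barcodes, the shares were 0.334 to 1.48% in E13 saline and 0.0740 to 0.265% in E15 saline. Over all P14 libraries they were 0 to 0.0571%. Thinned E15 MIA shares were 0.182 to 0.840%, which overlap those of E13 saline. The thinned E13 MIA shares were 0%, 0% and 1.58%, where both zeros come from libraries with at most 104 microglia left, and 0 of 104 allows a share of up to 2.88%. The ages did not overlap in saline at either depth, but after thinning E15 and P14 were set apart by few cells. The lowest E15 saline share was 3 of 4053 microglia, and the highest P14 saline share 2 of 3501. In P14 saline 3F it was 0 of 4122, which allows a share of up to 0.0728%. Age goes with library and no test was run.

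Passing cells of the 3 ages had overlapping levels of Apoe, and those of P14 stood apart in Cd9 and P2ry12. Unshared passing cells had a median over libraries of 7068 CPM of Apoe at E13 (5 libraries), 9623 at E15 and 10384 at P14, with ranges that overlap between ages. Over all unshared microglia Apoe stood at 5856 to 11045 CPM at E13 and E15 and at 1344 to 1730 CPM at P14, so the ranges of passing cells and of all microglia overlapped at E13 and E15 but not at P14. Cd9 had 538, 984 and 2518 CPM in that order, and its P14 range of 2149 to 2905 CPM lay above the E15 range of 723 to 1905 CPM. P2ry12 had 840, 1160 and 2161 CPM, and its lowest P14 value of 1832 CPM lay above the highest E13 value of 1428 CPM. Other P14 microglia held more P2ry12 still, as given above, so a high level at P14 is not particular to passing cells. Lyz2 had 523, 891 and 635 CPM, with overlapping ranges.

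**Figure D5:**
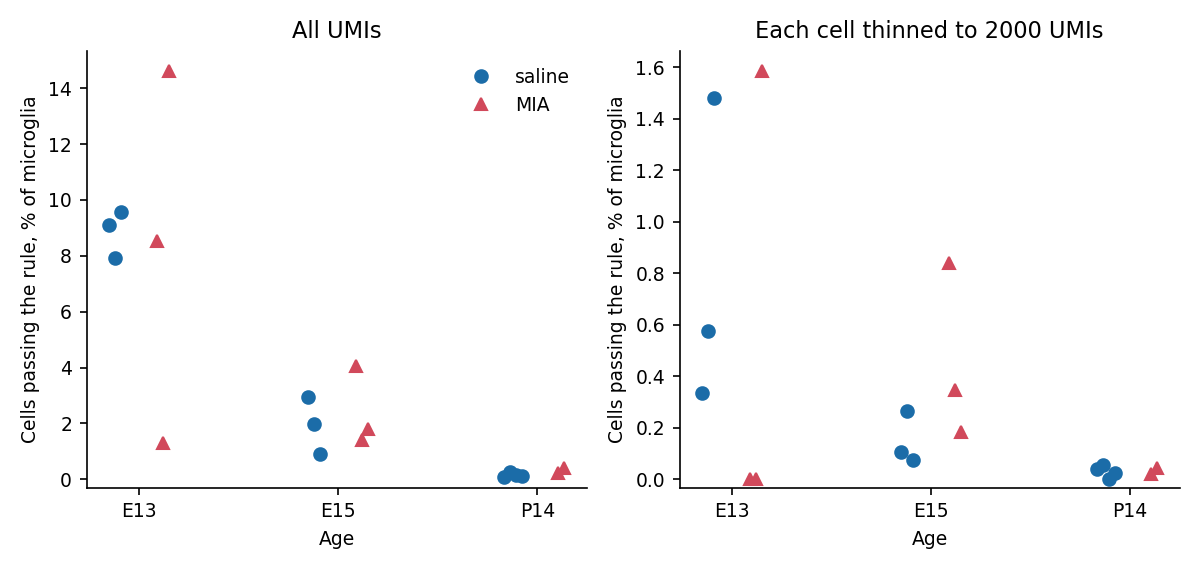
Percent of microglia that met the rule in each of the 18 sorted libraries by age, with circles for saline and triangles for MIA and shared barcodes left out, as deposited (left) and with each barcode thinned to 2000 UMIs (right). The highest share is 14.6% at E13, 4.05% at E15 and 0.393% at P14. Among saline libraries the order E13, E15, P14 also holds after thinning, but on few cells at E15 and P14.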

How the data were processed

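The authors deposited UMI counts per gene and barcode for each library, made with Cell Ranger against the mm10 genome (version 3.1.0 in the submitters' processing notes, while the study's methods name a later version), with 31053 genes in each table. These counts were used as deposited, without normalization, from 6 P14 and 12 embryonic sorted libraries. The members and gene lists were chosen with earlier results of these data known. A barcode was retained if 500 or more genes were detected and mitochondrial genes gave no more than 20% of UMIs, leaving 22187944 to 32527293 UMIs per P14 library, and doublet scores came from Scanpy 1.11.5 (Scrublet), removing no barcode from the values reported first.

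UMIs were summed per library and class. MIA was compared with saline by edgeR 4.0.16 (TMM scaling, filterByExpr, quasi-likelihood test, adjusted p under 0.05), with library as a block in the test of the difference between classes, and by DESeq2 1.42.0 as an alternative. The authors' sequencing batch was not used here, as the labels do not give it. Shares were compared by exact permutation over libraries. Selected and other cells were set side by side as CPM ratios, called at 2-fold in 6 of 6 libraries. Genes were named by rule: the 12 highest and 12 lowest called ratios, the rule genes, Apoe and list extremes, and all genes past the threshold in a test, of which some are not reported here. Cx3cr1, Trem2, Tmem119 and the genes printed by level across ages were set with the lists. Shared barcodes were found by exact sequence match across the 18 sorted libraries. Barcodes were thinned to 2000 UMIs by sampling without replacement, leaving out shallower ones. The edgeR step was checked on simulated counts. Alternatives covered thresholds, scaling, filters, doublets, thinning, sex and single libraries. Shared-barcode settings were chosen after seeing the data. Statistics used R 4.3.3 and Python 3.11.15.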

Additional observations from a re-analysis of the deposited data

Results flagged for a closer look

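Itgax in all selected cells of the saline libraries had 93.5 CPM in saline 1, from 3 UMIs, and 35.5 to 42.5 CPM in the other saline libraries. The gap of saline 1 to its nearest neighbour was 0.879 of the whole range, above Dixon's 95% value for 4 samples. Itgax was among the genes that chose the cells. In unshared cells the saline values were 102, 29.2, 0 and 59.0 CPM, and saline 1 no longer stood apart. Gpnmb, also a rule gene, had 1 UMI in unshared selected cells of saline 1 and 0 in the other saline libraries, a gap of 1 of the range. A single UMI gives this gap in whichever library it falls, so it marks no outlier. For continuous values about 1 in 20 such groups is picked out by chance, a rate that does not hold for counts this low.

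The MIA response of selected cells differed from that of other microglia, by edgeR's test of the difference in log2 fold change, for Xist (-1.98), Hist1h2ap (-1.88) and Cdkn1a (3.15), with all 88 cells. With shared barcodes left out none of the 3 passed, as 0 of 12031 genes did. With all cells, Hist1h2ap in other microglia stood highest in MIA 1, at 67.4 CPM against 8.58 CPM in MIA 2. In selected cells of saline 3F and 3M, Hist1h2ap had 0 UMIs without shared barcodes. Xist then stood at 102, 1062, 769 and 0 CPM in saline 1, 2, 3F and 3M and 202 and 140 CPM in MIA 1 and 2. In the unshared selected cells alone, edgeR called Xist for MIA when saline 3M was left out (-2.14, adjusted p = 0.000529). Without MIA 1, which leaves 1 MIA library, the log2 fold change of Xist was -1.91. The unshared selected cells with Xist or Tsix numbered 7 of 10 in saline 2 and 4 of 19 in MIA 2. Cdkn1a had 20 of its 28 MIA 1 UMIs in a single cell. Without shared barcodes Cdkn1a stood at 34.1, 39.0, 0 and 29.5 CPM in saline 1, 2, 3F and 3M and 283 and 15.0 CPM in MIA 1 and 2, against 31.2, 35.5, 5.09 and 10.6 and 263 and 15.0 CPM with all cells.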

How the results depend on the processing

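The difference in the share of selected cells, MIA minus saline, was positive in most settings, and 0.05 cannot be reached with 4 against 2 libraries. It turned negative after thinning to 2000 UMIs with the same rule (-0.0220 percentage points), after thinning with a rule sum of at least 2 (-0.0569, exact p = 0.133, with both MIA libraries below all saline ones), with a rule sum of at least 10 over 3 genes (-0.00476), and after thinning with shared barcodes left out (-0.00157). Leaving out 1 library gave -0.0263 to 0.0906 with all cells, negative without saline 1 (-0.0253) and without MIA 2 (-0.0263), and 0.0657 to 0.235 with shared barcodes left out. Without saline 3F and 3M together it was 0.118, and with both averaged as 1 sample 0.0607 (0.143 without shared barcodes).

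The count of genes called for MIA in selected cells was 19 with no filter beyond 1 UMI and 0 to 76 when 1 saline library was left out. It was 0 to 1 when shared barcodes were left out as well. The difference in response between classes gave 0 to 45 calls with 1 saline library left out and 0 without shared barcodes. Log2 fold changes of rule genes, which are descriptions, and of Apoe changed sign: Lpl was -0.0595 under the looser rule (sum of at least 3) and -0.26 without shared barcodes, with -0.17 to 0.43 over left-out libraries. Spp1 was 0.16 with sex as a covariate and -1.31 to 0.49 over left-out libraries, Apoe was -0.00857 without shared barcodes and -0.0712 to 0.59, and Itgax ran from -0.21 to 0.77. The cause of these changes was not tested.

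Replicate numbers 1 and 2 occur in both groups, but no label says that they mark a shared litter or day. The deviations of equal-numbered libraries from their group means correlated across genes with r of 0.05 (number 1) and 0.01 (number 2) in selected cells and 0.43 and 0.23 in other microglia. With the replicate number as a block, edgeR called 5 genes in selected cells, and the share differed by 0.118 percentage points.

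Genes higher in selected cells than in other microglia numbered 16 when other microglia were weighted to the same depth, and 56 to 119 with 1 library left out (43 to 65 without shared barcodes), the highest without saline 1. Genes lower numbered 105 with a minimum mean of 5 CPM, 20 without shared barcodes, 130 with both, 57 without saline 3F and 3M, with and without shared barcodes, and 41 to 73 with 1 library left out (31 to 42 without shared barcodes). Where a library was left out, fewer libraries had to agree. For the other settings the cause was not tested. A rule sum of 10 with 3 genes gave no ratio, as 2 libraries held no such cell. With 5 to 19 unshared cells a library, 1 UMI is worth from 4.99 CPM in MIA 2 to 34.1 CPM in saline 1. This limits what low genes can show, and 1 UMI can decide a call.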
